A study of Homo sapiens with 8 samples.

Results

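In 2 liver cancer cell lines treated with sodium pentaborate pentahydrate (NaB), curcumin (Cur) and piperine (Pip), 6829 assembled transcripts had a single exon and lay away from the annotated genes. A transcript was taken when it was on chromosomes 1 to 22 or X, overlapped no protein-coding or lncRNA gene of GENCODE release 44 on either strand, and did not reach into the 10 kb past the 3′ end of such a gene. These members were 11.8% of the 57798 single-exon transcripts on those chromosomes and 2.89% of all 236633 transcripts in 8 libraries. The space left by the rule held 1008 Mb of sequence, 34.6% of the 2911 Mb of known bases on those chromosomes. A window of 50 kb in place of 10 kb left 2728 members.

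All cells were wild type by their labels and were sampled after 48 h. HepG2, a human liver tumour line much used as a liver model, received no agent (control), 2500 µM NaB, 30 µM Cur with 6 µM Pip, or all 3 agents (combination). Hep3B, a hepatocellular carcinoma line, received the same 4 conditions with 1700 µM NaB. NaB is a boron salt, Cur the main polyphenol of turmeric, and Pip a pepper alkaloid that slows the breakdown of Cur. Cur and Pip were dissolved in DMSO, while the controls are described as untreated. There was 1 library for each line and condition, although the methods describe RNA isolation in triplicate, so no comparison of 2 conditions has a replicate check. Total RNA went into directional libraries read in pairs of 150 bases.

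The libraries labelled Hep3B did not show the liver genes that the label implies. Of 12 hepatocyte markers, 5 were at 0 in all 4 of them and 11 stayed under 1 FPKM (fragments per kb of transcript and per 1 M fragments) in all 4. The summed level of the 12 ran from 0.456 to 3.99 FPKM against 6300.3 to 14057 FPKM in HepG2. ALB, the gene for albumin, was at 0 in the HepG2 control and at 2989 to 7518 FPKM in the treated HepG2 libraries. AFP and APOC3 were also at 0 in the HepG2 control and above 0 in the treated HepG2 libraries. CYP2E1, among the 5 markers above, was at 0 in all 8 libraries, so it does not separate the labels. A gene was given 0 both for a level of 0 and where no transcript was assigned to it. These cases were not told apart, so a 0 need not mean that the mRNA was absent. The keratin genes KRT8 and KRT18 were listed in all 8 libraries, while of the other epithelial markers EPCAM was at most 0.539 FPKM and CDH1 at 0 in the libraries labelled Hep3B. Of the fibroblast markers DCN was at 15.5 to 120 FPKM there, COL1A1 at 1.19 to 3.99 FPKM and COL1A2 at 0, and in HepG2 none passed 0.487 FPKM. They are called here the libraries labelled Hep3B, and every difference between the lines is a difference between these labels. The depth, estimated from the listed coverage, was 25.6 to 35.7 M fragments a library.

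Transcripts of this kind come from several sources. Processed pseudogenes, or retrocopies, are copies of mature mRNA that were written back into the genome, so they have no introns and often end in a stretch of A. Transcription can also start upstream of a promoter in the opposite direction, or continue past the end of a gene. Interspersed repeats, which are mobile elements and their remains, make up a large part of the space between genes and carry promoters of their own. Reads from an abundant mRNA can also be placed at a near-identical copy, so a level at a copy may hold reads of the parent gene.

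The phrase "far from annotated genes" held for the gene types of the rule only. Of the 6829 members, 2169 (31.8%) overlapped a GENCODE pseudogene, and 33.5% overlapped a GENCODE gene of any type outside the rule, pseudogenes included. The member ran on the strand of the pseudogene in 91.6% of these 2169 cases. Of the 4541 members over no GENCODE gene, 1152 overlapped a RefSeq gene of GRCh38.p14.

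Of the retrocopies of ribosomal protein genes named here, the 4 below are those whose 3′ ends carry both marks of a copied mRNA. Others had neither mark, such as RPS24P8, RPL13AP24 and RPL41P1, or the polyadenylation signal without a run of A, such as RPL37P2 and RPL39P15. Each line gives the last 50 bases of the longest assembled member and the 20 genomic bases past its end, 5′ to 3′ on the strand of the transcript in GRCh38, with the polyadenylation signal AATAAA and any run of 8 or more A in capitals. The first 3 loci were listed in all 8 libraries and RPS18P12 in the 6 treated libraries only.
RPL3P4, chr14:98972784-98972853, minus strand: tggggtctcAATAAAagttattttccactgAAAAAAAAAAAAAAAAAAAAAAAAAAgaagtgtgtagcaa
RPL13P12, chr17:17383309-17383378, minus strand: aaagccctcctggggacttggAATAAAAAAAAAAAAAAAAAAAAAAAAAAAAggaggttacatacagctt
RPS23P8, chrX:70963309-70963378, plus strand: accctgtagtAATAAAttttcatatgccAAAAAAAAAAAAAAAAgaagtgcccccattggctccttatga
RPS18P12, chr17:14705024-14705093, minus strand: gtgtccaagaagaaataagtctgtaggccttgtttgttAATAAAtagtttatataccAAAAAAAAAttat

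Members that overlapped one another on either strand were merged into 3290 loci, of which 636 lay over a pseudogene, 2605 over no GENCODE gene (called unannotated below) and 49 over another gene type. AATAAA stood in the last 50 bases of 13.1% of pseudogene loci and 8.53% of unannotated loci, against 4.98% of 50-base windows in 1 kb tiles of the same space on both strands. A run of 8 A stood in the 70-base window in 10.9% of pseudogene loci, 4.996% of unannotated loci and 1.84% of the tiles. Intronic single-exon loci had the signal in 6.48% and the run in 3.61%. The median GC content was 45.3% at pseudogene loci, 46.4% at unannotated loci and 38.9% in the tiles.

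Sequence also tied the pseudogene loci to their parents. In 427 of the 636 pseudogene loci (67.1%) the longest member matched a protein-coding transcript at 90% identity or more over at least 50% of its length, and 413 of these 427 matched on the sense strand. The median identity was 96.7%, and none was identical. Ribosomal protein mRNAs were the parents of 97 of the 427 loci (22.7%), and 53 different ribosomal protein genes were among the 289 genes matched. The matched genes were abundant ones: 153 of 289 (52.9%) had a median level over the 8 libraries of at least 100 FPKM, compared with 4.80% of the 11845 protein-coding genes whose median was above 0. For loci listed in all 8 libraries the share was 69.8% of 53 genes, and for loci listed in 1 library 41.2% of 97 genes. Of the unannotated loci, 324 (12.4%) matched a protein-coding transcript by the same rule. Only 221 of these 324 matched on the sense strand, and the median identity was 92.9%. Their most frequent matches were LRRK1 (50 loci), NMNAT3 (25 loci) and MFN1 (24 loci, 1 of them on the sense strand). Whether these genes were their parents was not tested.

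Members were more numerous in each treated library than in the control of its line. In HepG2 they numbered 369 in the control, 677 with NaB, 1407 with Cur and Pip and 1219 with the combination. In the libraries labelled Hep3B they numbered 366 in the control, 612 with NaB, 888 with Cur and Pip and 1291 with the combination. The 2 controls were nearly equal, and the highest HepG2 count came with Cur and Pip while the highest count under the Hep3B label came with the combination.

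Relative to depth, the HepG2 libraries held 11.1, 22.2, 46.3 and 47.6 members per 1 M fragments in the order control, NaB, Cur and Pip, combination. The libraries labelled Hep3B held 10.95, 19.0, 28.3 and 36.2. NaB, and Cur with Pip as 1 treatment, were then each compared over 4 disjoint pairs of libraries of the same line. The pairs for Cur and Pip also differed in the DMSO that carried them, so vehicle and agents cannot be told apart there. With Cur and Pip the rate was 4.16, 2.15, 2.59 and 1.90 times that without them, higher in 4 of 4 pairs (mean log2 ratio 1.36 ± 0.50, SD, n = 4 pairs, two-sided exact permutation p = 0.13, adjusted p = 0.19). With NaB the ratios were 1.99, 1.03, 1.74 and 1.28, also higher in 4 of 4 pairs (mean log2 ratio 0.55 ± 0.43, exact permutation p = 0.13, adjusted p = 0.19). With 4 pairs a two-sided p cannot go under 0.13, and p-values were adjusted by Benjamini-Hochberg over 12 such tests. The NaB ratio was 1.03 in HepG2 where Cur and Pip were present and 1.99 where they were absent. HepG2 exceeded the Hep3B label in 4 of 4 conditions, by 1.02 to 1.63 times (mean log2 ratio 0.34 ± 0.29, exact permutation p = 0.13, adjusted p = 0.19). Among members of at least 1 FPKM this ratio reversed to -0.26 on the log2 scale, and at a coverage of at least 5 it was 0.15 (exact permutation p = 0.62).

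**Figure D1:**
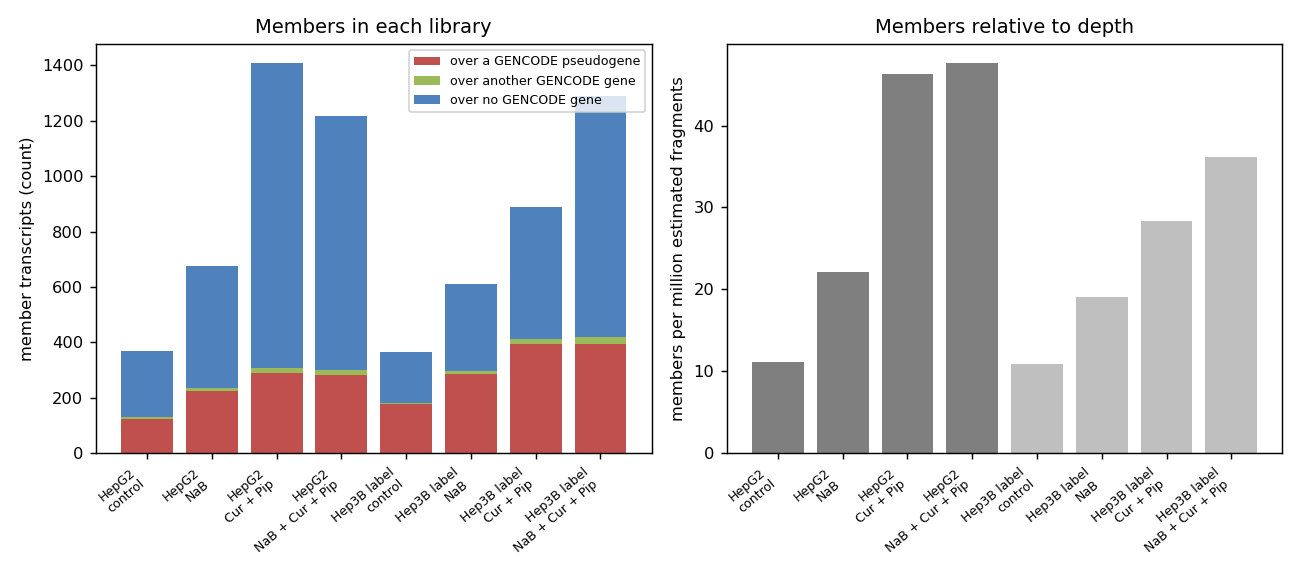
The left panel plots the number of members in each library (vertical axis, count), split by whether they lie over a GENCODE pseudogene, another GENCODE gene or none. The right panel plots members per 1 M estimated fragments; the controls stand at 11.1 and 10.95, and the libraries with Cur and Pip between 28.3 and 47.6.

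The other single-exon transcripts were also more numerous after treatment, so the members were set against them. Members made up 8.75% of single-exon transcripts in the HepG2 control (95% Wilson interval 7.94 to 9.65%), 10.5% with NaB, 11.3% with Cur and Pip and 11.2% with the combination (10.7 to 11.9%). For the Hep3B label the shares were 10.1% in the control (9.17 to 11.1%), 12.3% with NaB, 13.9% with Cur and Pip and 14.5% with the combination (13.8 to 15.3%). The share was higher with Cur and Pip in 4 of 4 pairs, by 2.35 ± 1.26 percentage points (exact permutation p = 0.13, adjusted p = 0.19). That difference was 0.78 points with a 50 kb window and 0.79 points among members of at least 1 FPKM, where the pairs no longer all pointed one way (exact permutation p = 0.88). With NaB the share was higher in 3 of 4 pairs, by 1.09 ± 1.03 points (exact permutation p = 0.25, adjusted p = 0.33). It was lower in HepG2 than under the Hep3B label in 4 of 4 conditions, by a mean difference of -2.23 ± 0.85 points (exact permutation p = 0.13, adjusted p = 0.19). When all GENCODE genes were left out, that difference reversed to 0.34 points, and it was -0.67 points with a 50 kb window and -7.64 points at 1 FPKM or more. The intervals treat the members of a library as independent draws, which clustered members need not be, and do not cover variation between replicate libraries.

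The added members were of different kinds. In HepG2 with Cur and Pip, unannotated members per 1 M fragments were 5.01 times the control and pseudogene members 2.56 times. With NaB alone both kinds stood at 1.99 to 2.01 times the HepG2 control. Under the Hep3B label the combination gave 4.46 times for unannotated and 2.08 times for pseudogene members, and Cur and Pip gave 2.77 and 2.38 times. Intronic single-exon transcripts came to 4.77 times the HepG2 control with Cur and Pip and 3.14 times the Hep3B-labelled control with the combination. Pseudogene members accordingly made up 33.3% of members in the HepG2 control (28.7 to 38.3%) and 20.5% with Cur and Pip (18.4 to 22.7%). The corresponding shares under the Hep3B label were 48.4% in the control (43.3 to 53.5%) and 30.4% with the combination (28.0 to 33.0%).

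Position near genes was set in part by the rule, which bars 10 kb past a 3′ end and leaves the 5′ side of a gene open. The tiles came from the same space. With 10 kb barred at both gene ends 4455 members were left. Between 15.7% and 23.04% of the members of a library began within 5 kb upstream of a protein-coding or lncRNA gene on the opposite strand, the layout of divergent transcription, compared with 2.93% of 1 kb tiles read on either strand. The share was 21.4 to 30.1% among unannotated members and 7.12 to 10.7% among pseudogene members, and these ranges did not overlap. A gene on the same strand ended within 50 kb upstream, and by the rule not within 10 kb, for 22.7 to 26.6% of members and 15.2% of tiles. Between 0.93% and 3.52% of members had a transcript of the same library on the opposite strand.

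Median lengths were lower in each treated library than in the control of its line. In HepG2 the median was 1187 nt in the control, 1125 nt with NaB, 902 nt with Cur and Pip and 1084 nt with the combination. The Hep3B label gave 1016.5, 769.5, 621.5 and 749 nt in the same order. With Cur and Pip the median was lower in 4 of 4 pairs, with a mean difference of -185 ± 184 nt (exact permutation p = 0.13, adjusted p = 0.19). It was -51.8 nt among members of at least 1 FPKM (exact permutation p = 0.38) and -69.1 nt at a coverage of at least 5 (exact permutation p = 0.5), and in neither did all pairs point one way. HepG2 medians exceeded those of the Hep3B label in 4 of 4 conditions, by 285 ± 83 nt (exact permutation p = 0.13, adjusted p = 0.19), and by 98.8 nt among members of at least 1 FPKM. For NaB 2 pairs were higher and 2 lower (mean difference 0.13 ± 195 nt, exact permutation p = 1). Unannotated members were longer than pseudogene members in every library, with medians of 721 to 1330 nt against 514 to 845 nt.

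Most members were listed at low levels. Among members of at least 300 nt, the median level in HepG2 was 0.58 FPKM in the control, 0.62 with NaB, 0.74 with Cur and Pip and 0.73 with the combination. Under the Hep3B label it was 0.86, 1.25, 1.43 and 0.90 FPKM. The level was lower in HepG2 than under the Hep3B label in 4 of 4 conditions (mean log2 ratio -0.71 ± 0.33, exact permutation p = 0.13, adjusted p = 0.19). Cur and Pip gave a mean log2 ratio of 0.21 ± 0.50 with 3 of 4 pairs higher (exact permutation p = 0.5, adjusted p = 0.6), and the ratio reversed to -0.20 among members of at least 1 FPKM. NaB gave -0.01 ± 0.49 with 2 of 4 higher (exact permutation p = 0.88, adjusted p = 0.95). Pseudogene members had medians of 1.25 to 2.46 FPKM and unannotated members of 0.48 to 0.87 FPKM. Between 20 and 68 members a library reached 10 FPKM. Members under 300 nt numbered 7 to 139 a library, and their FPKM values are unstable because few fragments fit into so short a transcript, so levels below are those of members of at least 300 nt unless stated.

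**Figure D2:**
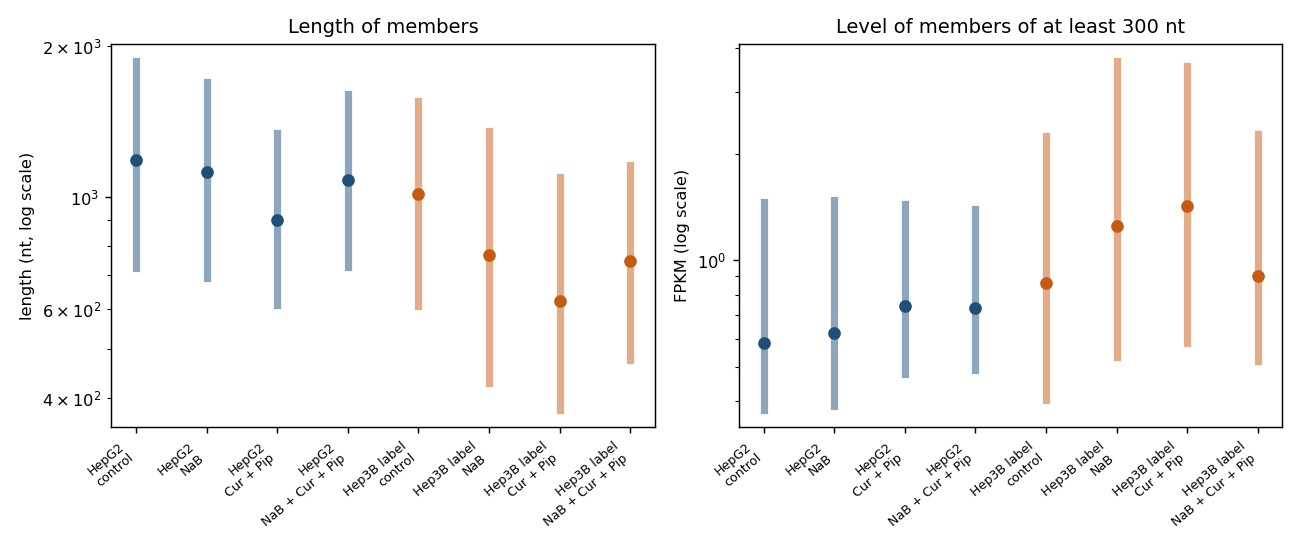
Points show the median and bars the interquartile range over the members of each library, for length in nt (left) and for FPKM of members of at least 300 nt (right), both on log axes. The medians of length lie between 621.5 and 1187 nt, and each Hep3B-labelled library sits below the HepG2 library of the same condition.

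The longest member, of 18230 nt at chr11:101353714-101371943 on the minus strand, was assembled in the library labelled Hep3B with NaB at 2.87 FPKM, with the nearest upstream gene, TRPC6 (a cation channel gene), 79620 bases away on the same strand. The next was 9962 nt at chr9:112369964-112379925 in HepG2 with NaB at 1.48 FPKM, and it began 154 bases from HSDL2 on the opposite strand and overlapped the RefSeq gene PTBP3. The third, 9469 nt at chr2:13523899-13533367, was in the HepG2 control at 1.28 FPKM. Over all libraries 78 members exceeded 5000 nt.

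Recurrence differed with what lay under the locus. Of the 3290 loci, 1983 (60.3%) were listed in 1 library and 76 (2.31%) in all 8. Among pseudogene loci 33.8% were in 1 library and 10.7% in all 8, while among unannotated loci 67.0% were in 1 library and 0.27% in all 8. Intronic single-exon loci, for comparison, were in 1 library in 68.5% of 10832 cases and in all 8 in 0.60%. Of the 76 loci in all 8 libraries, 68 lay over a pseudogene and 7 over no GENCODE gene. The HepG2 libraries alone held 1583 loci (48.1% of the 3290), of which 1421 were unannotated. The libraries labelled Hep3B alone held 1124 (34.2%), 874 of them unannotated, and 583 (17.7%) were in both sets. The 1983 loci listed in 1 library fall to 1 line by definition. The same shares over all single-exon loci were not computed.

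**Figure D3:**
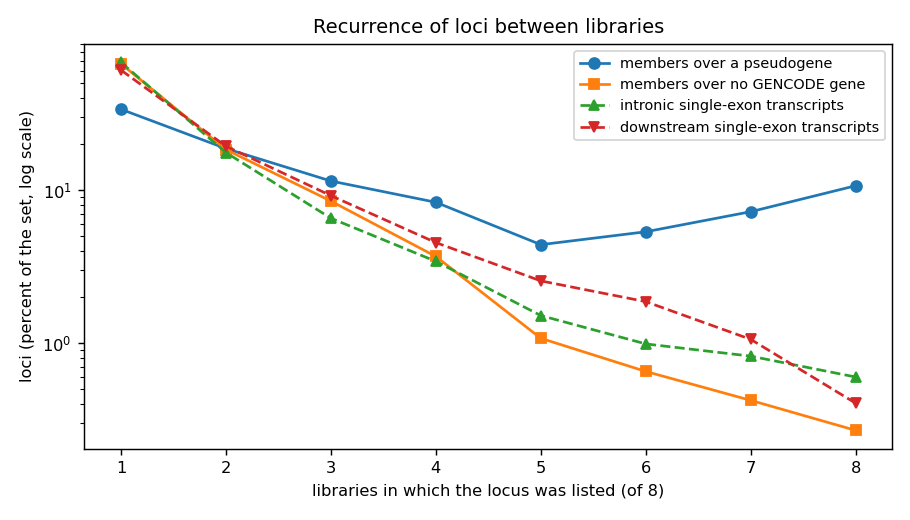
The percentage of loci (vertical axis, log scale) is plotted against the number of libraries that list them, for pseudogene and unannotated members and for intronic and downstream single-exon transcripts. Pseudogene loci fall from 33.8% in 1 library to 10.7% in 8, and unannotated loci from 67.0% to 0.27%.

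Sharing between libraries of a line was unequal. The HepG2 control shared 223 of its 338 loci (66.0%) with NaB, which was 35.7% of the NaB list. HepG2 with Cur and Pip and with the combination shared 564 loci, 43.7% of one list and 50.2% of the other. With the Hep3B label, the same conditions shared 533 loci, 65.5% and 43.5% of their lists. Between the lines the controls shared 118 loci, 34.9% of the HepG2 and 34.4% of the Hep3B-labelled list.

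The 8 loci with the highest median FPKM among those listed in all 8 libraries were retrocopies, and that ranking counted members of any length. RPL3P4 (chr14:98972799-98973517) copies the mRNA of RPL3, a large ribosomal subunit protein. Its minus-strand member of 519 to 711 nt stood at 13.4, 6.31, 13.9 and 8.21 FPKM in HepG2 and at 17.9, 12.5, 10.9 and 18.0 FPKM under the Hep3B label, in the order control, NaB, Cur and Pip, combination. The lines overlapped and no condition stood apart. The locus also held plus-strand pieces of 190 to 217 nt with 276 to 757 FPKM in 5 libraries, and these set its rank. RPL3P4 was 99.6% identical to RPL3 mRNA over the 67.4% of its longest member that aligned. Its first 120 aligned bases, with the bases that differ from RPL3 mRNA in capitals, hold 2 such positions.
RPL3P4, chr14:98973182-98973301, minus strand: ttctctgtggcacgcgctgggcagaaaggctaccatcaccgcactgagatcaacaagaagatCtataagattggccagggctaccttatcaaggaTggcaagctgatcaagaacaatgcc

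RPS23P8, a copy of the small-subunit gene RPS23, stood at 17.3, 39.0, 42.4 and 30.1 FPKM in HepG2 and at 29.0, 55.03, 95.2 and 79.8 FPKM under the Hep3B label. Each control was the lowest library of its line. The RPS12 copy ENSG00000227615 (RPS12P22 in RefSeq) stood at 58.1, 63.2, 45.2 and 33.9 FPKM in HepG2 and 57.8, 59.6, 100.1 and 89.1 FPKM under the Hep3B label. Its 2 highest values were those of the Hep3B-labelled libraries that received Cur and Pip, with and without NaB.

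RPL13P12, a copy of RPL13, stood at 5.64 to 17.3 FPKM in HepG2 and at 170 to 563 FPKM under the Hep3B label. These ranges did not overlap. PPIAP22, a copy of the peptidyl-prolyl isomerase gene PPIA, stood at 126, 13.9, 45.6 and 59.2 FPKM in HepG2 and at 905, 203 and 174 FPKM in the Hep3B-labelled control, Cur and Pip, and combination. Its only member in the Hep3B-labelled NaB library was 293 nt long. The other loci of this set, FTLP2, RPS24P8 and HMGN2P41, were listed with a member of at least 300 nt in 2, 1 and 4 libraries. Counting transcripts of at least 300 nt, FTL, the parent of FTLP2, was at 0 or without a transcript in 6 of the 8 libraries that held the copy, and PPIA in 2 of 8.

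A set of 39 loci, 1.19% of the 3290 loci, was listed in all 4 HepG2 libraries and in none labelled Hep3B, 33 of them unannotated. The same share over all single-exon loci was not computed. The highest of the 39 was at chr20:30651401-30651765, in the RefSeq gene LOC112268265, at 37.7, 34.4, 36.9 and 52.1 FPKM. Next came chr13:18806021-18806553 at 8.05, 19.4, 19.997 and 6.81 FPKM and chr2:53232920-53233324 at 7.20, 10.95, 6.55 and 11.2 FPKM. The fifth, chr7:128102981-128103538, stood at 2.38, 5.73, 2.51 and 4.58 FPKM. Neither the chromosome 13 nor the chromosome 2 locus had a match to a protein-coding transcript. The 5′ ends of their longest members are given as examples of sequence listed in HepG2 only and without gene annotation.
chr13:18806434-18806553, minus strand: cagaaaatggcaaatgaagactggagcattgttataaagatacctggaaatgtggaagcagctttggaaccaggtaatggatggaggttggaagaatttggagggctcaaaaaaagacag
chr2:53233204-53233323, minus strand: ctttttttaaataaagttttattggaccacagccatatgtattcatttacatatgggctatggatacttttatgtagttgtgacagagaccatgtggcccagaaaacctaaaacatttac

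The fourth of these loci by level, chrX:81681937-81682593, copied an mRNA without being annotated in GENCODE or RefSeq. Its longest member matched the mRNA of FN1, the gene for the matrix protein fibronectin, at 96.7% identity over 92.8% of its 653 nt, on the sense strand. The first 150 aligned bases differ from FN1 mRNA at 6 positions, shown in capitals.
chrX:81681941-81682090, plus strand: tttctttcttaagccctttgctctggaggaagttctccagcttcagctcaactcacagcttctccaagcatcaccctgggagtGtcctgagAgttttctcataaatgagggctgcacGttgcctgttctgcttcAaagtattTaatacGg
The locus stood at 2.29, 7.04, 5.89 and 15.5 FPKM in HepG2, as members of 653, 589, 589 and 391 nt. It was not listed in any library labelled Hep3B. FN1 itself stood at 1416, 825, 449 and 315 FPKM in HepG2 and at 2.12 to 4.63 FPKM in the libraries labelled Hep3B. The locus was listed in the libraries where FN1 was high. Within HepG2 the library with the lowest FN1 level had the highest level at the locus and also the shortest member there. These levels thus belong to members of unlike length. How many reads of FN1 were placed at the copy was not tested.

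**Figure D4:**
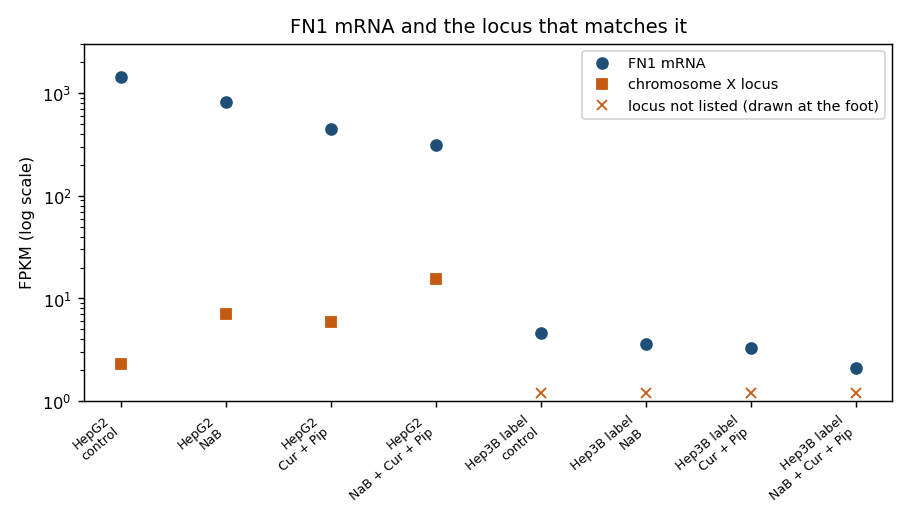
FPKM (log axis) of FN1 mRNA and of the chromosome X locus in the 8 libraries; crosses mark libraries that did not list the locus. FN1 lies at 315 to 1416 FPKM in HepG2 and at 2.12 to 4.63 under the Hep3B label.

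The opposite set held 29 loci (0.88% of the 3290), listed in all 4 libraries labelled Hep3B and in no HepG2 library. Of these, 15 were unannotated and 12 lay over a pseudogene, and the share over all single-exon loci was not computed. The highest, chr2:23280730-23281052, stood at 7.74, 39.4, 33.9 and 30.7 FPKM in the order control, NaB, Cur and Pip, combination, with the control the lowest. The unannotated locus chr3:146366521-146367210 stood at 3.02, 9.33, 10.2 and 22.4 FPKM. The retrocopy PPP2CBP1, of the phosphatase subunit gene PPP2CB, stood at 1.57, 16.3, 9.29 and 5.71 FPKM. The copies PPIAP43 and KRT8P32 were also in this set, with members of at least 300 nt in 2 and 3 libraries.

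Loci listed in all 6 treated libraries and in neither control numbered 23, which is 0.70% of the 3290 loci, and the share among all 27538 single-exon loci was 0.283%. Of the 23, 20 lay over a pseudogene, compared with 68 of the 76 loci listed in all 8 libraries. No transcript of any kind was assembled over the 23 in either control. The unannotated locus chr12:119941218-119941650, in the RefSeq gene LOC112268087, stood at 5.49, 10.2 and 6.08 FPKM in HepG2 with NaB, Cur and Pip, and combination, and at 21.5, 29.9 and 40.8 FPKM in the same conditions under the Hep3B label. RPL37P2, a copy of the ribosomal gene RPL37, had a member of at least 300 nt in 4 of the 6, at 7.99 FPKM in HepG2 with NaB and 19.7, 41.2 and 30.5 FPKM under the Hep3B label. HSPA8P5, a copy of the chaperone gene HSPA8, stood at 2.38 and 6.50 FPKM in HepG2 and 2.84 and 6.85 FPKM under the Hep3B label in the libraries with NaB and with the combination, and its members in the Cur and Pip libraries were of 153 and 183 nt. RPS18P12 and RPL34P18 completed the 5 named.

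The reverse pattern was rare. Only 2 loci were in both controls and in no treated library, and RPL41P1, a copy of the short ribosomal gene RPL41, was one of them at 1350 and 2383 FPKM. RPL41 was listed at 1188 and 1232 FPKM in the same controls. The copy is 99.7% identical to RPL41 mRNA over 99.7% of its length, and where a member was not listed these files do not show whether reads were there.

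By annotation, processed pseudogenes took 1580 members, transcribed processed pseudogenes 299, unprocessed pseudogenes 175 and transcribed unitary pseudogenes 74. HSP90AB2P, a transcribed processed copy of the chaperone gene HSP90AB1, was listed in 6 libraries, with a member of at least 300 nt only in the Hep3B-labelled control, at 11.9 FPKM. Of the unprocessed class, which arose by gene duplication, PKD1P2 stood at 12.1 FPKM in HepG2 with the combination and had no member in another library, though other transcripts overlapped it in the HepG2 control and with NaB. AGAP14P stood at 0.678 FPKM in HepG2 with Cur and Pip and at 18.0 FPKM in the Hep3B-labelled library with Cur and Pip. The unitary pseudogene CMAHP, the human remnant of an enzyme gene for a sialic acid, stood at 2.21 and 1.58 FPKM in the Hep3B-labelled libraries with Cur and Pip and with the combination.

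Within lines, 111 of 2166 HepG2 loci (5.12%) were in the 3 treated libraries and not the control, against 3.49% of all single-exon loci of that line. Under the Hep3B label 172 of 1707 loci (10.1%) had this pattern, against 5.68%. Pseudogenes made up 60 of the 111 (54.1%) and 94 of the 172 (54.7%). Among loci in all 4 libraries of a line, control included, they made up 80 of 141 (56.7%) in HepG2. Under the Hep3B label they made up 133 of 171 such loci (77.8%). By the rule for names, the treated-only loci included FTH1P12, RPL39P15 and RPL13AP24 in HepG2 and PKMP1 and HSPB1P1 under the Hep3B label. In HepG2 only RPL13AP24 had a member of at least 300 nt, at 13.7 FPKM with Cur and Pip.

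Levels at loci were also compared by fold, as log2 of (FPKM + 1) treated over control, with 1.5 as the limit a locus without a member set to 0 and members of any length counted. Of 792 HepG2 loci that reached 1 FPKM in the line, 97 were past the limit upward and 16 downward with NaB (12.2% and 2.02%), where all single-exon loci gave 6.98% and 3.21%. With Cur and Pip 231 were higher and 22 lower (29.2% and 2.78%), against 27.1% and 3.35%. With the combination 187 were higher and 20 lower (23.6% and 2.53%), against 22.2% and 3.63%. The members' shares in HepG2 with Cur and Pip were thus near those of all single-exon loci.

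Of 893 loci under the Hep3B label, 182 were higher and 27 lower with NaB (20.4% and 3.02%), against 13.6% and 4.75% of all single-exon loci. With Cur and Pip 322 were higher and 20 lower (36.1% and 2.24%), against 22.4% and 4.27%. With the combination 348 were higher and 29 lower (39.0% and 3.25%), against 27.9% and 4.85%. The median log2 fold of members was 0, 1.08 and 0.84 in HepG2 and 0, 0.92 and 1.21 under the Hep3B label for NaB, Cur and Pip, and combination, beside 0, 0.93 and 0.20 and 0, 0 and 0.84 for all single-exon loci. Among loci listed in both libraries of a comparison, 137 to 193 of them, 16 to 39 were past the limit upward and 3 to 16 downward, with medians of 0.38 to 0.70. The counts past the limit were 49 to 138 with a pseudocount of 5 in place of 1. With 1 library a condition these folds carry no test, and the 3 comparisons of a line share their control.

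Members also lay in runs. A cluster was 3 or more members of 1 library with gaps of at most 10 kb. In HepG2, 11.1% of members were in clusters in the control (8.30 to 14.7%), 15.7% with NaB (13.1 to 18.6%), 22.2% with Cur and Pip (20.2 to 24.5%) and 22.8% with the combination (20.5 to 25.2%). Under the Hep3B label the shares were 7.10, 8.66, 9.57 and 8.13%, with an interval of 4.89 to 10.2% in the control and 6.76 to 9.75% in the combination. Each HepG2 library held a larger share than the Hep3B-labelled library of the same condition. These intervals treat members as independent draws, which members of 1 cluster are not, and so can be too narrow. More members in a fixed space also bring them closer together, and the part of this in the shares was not tested; the Hep3B-labelled combination had 1291 members and 8.13% in clusters, and HepG2 with the combination 1219 members and 22.8%.

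Between 63.5% and 97.6% of clustered members were unannotated, and 218 of 264 clusters had all their members on 1 strand. Merged over libraries the clusters covered 177 regions, 115 in HepG2 only, 50 under the Hep3B label only and 12 in both. No region was a cluster in more than 4 libraries. The largest was at chr9:94511745-94547667, where the HepG2 combination had 17 members on the minus strand within 35923 bases, at 0.535 to 3.03 FPKM. The same region held 11 members in HepG2 with Cur and Pip, 0 in the HepG2 control and with NaB, and 1, 1, 1 and 3 under the Hep3B label. A region at chr9:40693405-40747043 held 1, 1, 7 and 13 members in HepG2 and none under the Hep3B label. A region at chr20:30629128-30655418, which includes the LOC112268265 locus, held 2, 11, 8 and 8 members in HepG2 and none under the Hep3B label.

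Clusters of the Hep3B label were smaller. The largest held 7 members on the plus strand at chr21:45055712-45068044 with NaB, where the combination had 1 member and the other libraries had none. At chr13:109219167-109235947 the libraries labelled Hep3B had 4, 1, 4 and 6 members and HepG2 had none. A cluster at chr13:110827977-110839351 held 5 members with NaB and 3 with the combination. A cluster of equal size, 5 members with Cur and Pip, lay in the region chr5:10205011-10214789, where the control, NaB and combination libraries labelled Hep3B had clusters of 4, 3 and 3.

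Many unannotated loci shared sequence with one another. The longest member of each locus was aligned to all others, and loci joined by an alignment of at least 400 bases at 85% identity or more, covering 50% of the shorter, were put in 1 family; this grouping was chosen after the values were seen. Of the 3290 loci, 579 were in families, 423 of them unannotated. The largest family had 229 loci on 23 chromosomes, listed at 20, 30, 98 and 104 loci in HepG2 and at 20, 23, 33 and 93 under the Hep3B label. The libraries held 338, 625, 1292 and 1123 loci in HepG2 and 343, 573, 814 and 1224 under the Hep3B label. The family depends on the alignment length asked for: with 300 bases 1317 loci were in families and the largest had 1098, and with 500 bases the numbers were 426 and 128. With 300 bases HepG2 with Cur and Pip had 438 loci of the largest family and the combination 398, so the order of these libraries reversed. The share of unannotated loci in any family was 15.6 to 24.1% over the 8 libraries, 19.6% in the HepG2 control and 21.7% with the combination in HepG2, and it was lower with NaB (15.6%) and with Cur and Pip (17.2%).

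The second family had 59 loci on 16 chromosomes, 58 of them unannotated. It was listed at 1, 2, 11 and 17 loci in HepG2 and at 10, 32, 25 and 28 under the Hep3B label, and each Hep3B-labelled library held more than the HepG2 library of the same condition. Of its loci 37 were found under the Hep3B label only and 14 in HepG2 only. In 527 of 620 aligned pairs the 2 members were read in the same direction along the shared sequence, with a median identity of 93.1%. The best protein-coding match of 42 of the 59 loci was a transcript of LRRK1, a kinase gene, and LRRK1 itself was listed at 2.69 to 3.91 FPKM in the libraries labelled Hep3B. The locus at chr3:146366521-146367210 described above belongs to this family.

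**Figure D5:**
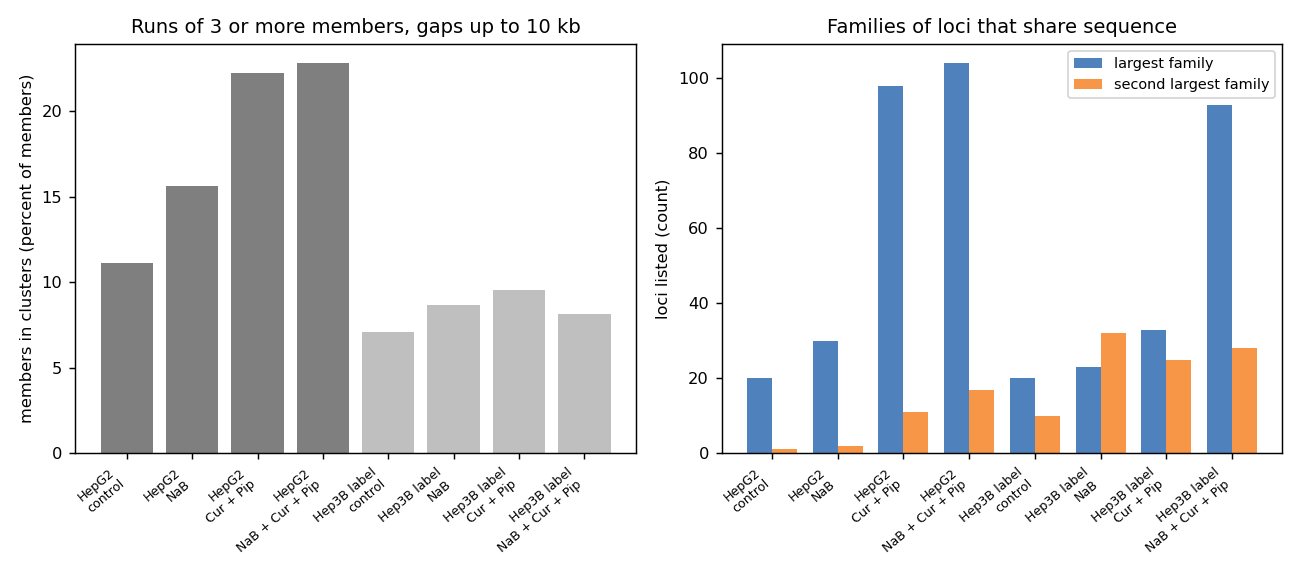
The left panel plots the percentage of members in clusters in each library, and the right panel the number of loci of the 2 largest sequence families listed there. In HepG2 the clustered share runs from 11.1 to 22.8%, and the second family counts 10 to 32 loci in the libraries labelled Hep3B, more in each than in the HepG2 library of the same condition.

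A set of 9 loci matched the mitochondrial genome at 90% identity or more over at least 50% of their longest member. MTRNR2L12, at chr3:96617189-96618244, a nuclear copy of mitochondrial ribosomal RNA, was listed in all 8 libraries at 34.7, 36.2, 45.9 and 76.6 FPKM in HepG2 and at 7.67, 31.4, 77.1 and 34.6 FPKM under the Hep3B label. It was the highest of the 7 unannotated loci in all 8 libraries and was chosen after its values were seen. Its levels count members of any length. The first 150 aligned bases differ from the mitochondrial genome at 10 positions, in capitals.
chr3:96618083-96618232, minus strand: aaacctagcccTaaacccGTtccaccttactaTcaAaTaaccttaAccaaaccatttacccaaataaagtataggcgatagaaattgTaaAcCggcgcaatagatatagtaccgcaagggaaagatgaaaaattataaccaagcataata
The annotated copy at chr1:631656-634974 was 98.5% identical and stood at 46.6 to 244 FPKM in the 7 libraries that listed it, all but HepG2 with Cur and Pip. Short loci at chr6:61574136-61574319 and chr7:45251967-45252160 were listed in 5 libraries each and in neither control, as members of at most 184 and 194 nt.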

How the data were processed

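RNA-seq data of 8 libraries were analysed. Reads were aligned by the authors with STAR (GRCh38) and assembled library by library with Cufflinks. FastQC and Cuffdiff also stand in the submitters' processing notes, and tool versions were not given in the sources used here. Each deposited transcript carries an FPKM, its 95% interval and a coverage. No counts were read, so no count test was run. Fragments were estimated from coverage and length of transcripts of at least 300 nt. Genes came from GENCODE release 44 and RefSeq (GRCh38.p14), and sequences were read from the GRCh38 reference.

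Members were merged into loci where they overlapped by 1 base, and the level of a locus is its highest member FPKM in a library. Folds are log2((FPKM + 1) / (FPKM + 1)) over loci that reached 1 FPKM in any library of a line. Loci were aligned with BLAST+ 2.17.0. Paired values were compared by exact sign-flip permutation tests. Python 3.11.15, numpy 2.4.6, pandas 2.3.3, scipy 1.17.1, networkx 3.6.1 and matplotlib 3.10.9 were used. The steps were tested on simulated data.

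The members and lists were chosen with earlier results of these data known. Named were the 8 highest loci in all 8 libraries, up to 5 of each line, treated-only or control-only set, up to 3 of those in all treated libraries of a line, the 3 longest members, the 3 largest clusters of each line and up to 3 loci of each frequent gene type, and a locus outside this rule is marked as chosen after its values were seen. Alternatives were other windows, gene sets, strand rules, FPKM, coverage and length minimums, overlaps, pseudocounts, fold limits and gaps. Near-identical copies can share reads with their parents, which can move their levels, and this was not tested. Intervals of shares treat the members of a library as independent draws and do not cover variation between replicate libraries.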

Additional observations from a re-analysis of the deposited data

Results flagged for a closer look

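Single-exon transcripts were also assembled on scaffolds outside the chromosomes, which the rule for members does not take. They exceeded the control of the line in 5 libraries. HepG2 had 48 in the control, 59 with NaB, 73 with Cur and Pip and 59 with the combination. The libraries labelled Hep3B had 21 in the control, 17 with NaB, 26 with Cur and Pip and 33 with the combination. These counts have no replicate check, and what moved with them was not tested.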

How the results depend on the processing

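Of 131 alternative values for 26 results, 37 moved, 11 reversed and the other 83 were counted as kept, though not always in size. The cause was not tested. A paired comparison was counted as kept when its mean difference or log2 ratio kept its sign, whatever its p-value. With 4 pairs the exact permutation p cannot go under 0.13, so no threshold below that could be crossed. The Cur and Pip difference in share at an FPKM of at least 1 was among the 83 (exact permutation p = 0.88). The 6829 members became 2728 with a 50 kb window, 4455 with 10 kb at both gene ends, 12133 on the same strand only, 3772 outside all GENCODE genes and 3192 at an FPKM of at least 1. At an FPKM of at least 1 the log2 ratio of HepG2 to the Hep3B label in members per 1 M fragments reversed to -0.26, and outside all GENCODE genes the difference in share reversed to 0.34 points. The NaB difference in median length was -35.8 nt with 50 kb, -12.0 at an FPKM of at least 1, -4.63 at a coverage of at least 5 and -59.8 in the Hep3B-labelled pairs. The Cur and Pip log2 ratio of FPKM was -0.20 at an FPKM of at least 1 and -0.16 at a coverage of at least 5, and that of NaB was 0.00032 with 50 kb, 0.12 outside all GENCODE genes and 0.038 in HepG2 pairs. Loci in 1 library came to 68.1% with reciprocal overlap, 49.9% counting any transcript and 56.1% at an FPKM of at least 1, and loci in all 8 to 1.13, 3.34 and 3.93%, and 2.99% with 50 kb.

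Loci past the fold limit, for NaB, Cur and Pip, and combination, were 224, 526 and 456 in HepG2 with a pseudocount of 0.1, and 327 (NaB) and 614 (combination) under the Hep3B label. With a pseudocount of 5 they were 49, 74 and 72, and 91, 138 and 133. With a limit of 1 they were 188, 477 and 390, and 587 for the Hep3B-labelled combination. Among loci listed in both libraries they were 20, 23 and 26, and 43, 48 and 43; there the split was 17 higher and 6 lower for HepG2 with Cur and Pip, 32 and 11 for Hep3B-labelled NaB, and 27 and 16 for its combination. Members in clusters were 12.4% with gaps of 5 kb, 20.5% with 50 kb and 6.14% at an FPKM of at least 1. Overlap with another GENCODE gene was 27.9% when 50% of the member was required. The comparison of lines could not be run within a line, and repeat content was not computed. Family sizes at 300 and 500 bases were computed after the data were seen.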

Other observations

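The 7 unannotated loci listed in all 8 libraries, apart from MTRNR2L12, were chosen after their values were seen. The levels given here for unannotated loci count members of any length. HIGD1AP1 (chr12:53142602-53143318), a RefSeq pseudogene that matched the mRNA of HIGD1A, a mitochondrial inner membrane protein gene, at 97.2% identity, stood at 2.56, 12.8, 28.9 and 9.72 FPKM in HepG2 and at 11.4, 3.02, 12.7 and 2.40 FPKM under the Hep3B label, in the order control, NaB, Cur and Pip, combination. Cur and Pip alone gave the highest value in each line. HK2P1, a copy of the hexokinase gene HK2, stood at 3.004, 4.49, 6.35 and 2.33 FPKM in HepG2 and at 1.95, 2.52, 9.60 and 9.10 FPKM under the Hep3B label. The locus chr3:130747194-130748245, with no RefSeq gene, ranged from 0.987 to 17.4 FPKM. The locus chr14:23581043-23584447, listed in 7 libraries, stood at 207, 136 and 67.2 FPKM in HepG2 with the control, NaB and the combination. Under the Hep3B label it stood at 1.29 to 10.4 FPKM. It was not listed in HepG2 with Cur and Pip, and only among the 7 libraries did the ranges of the lines not overlap.

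Of the unannotated loci, 46 were the only such locus to match their mRNA on its strand, and 33 of the 46 lay in no RefSeq gene. On chromosome 19, members per Mb of the space left by the rule were 0.476 in both controls, 3.96 in HepG2 with Cur and Pip and 5.39 in the Hep3B-labelled combination. On chromosome 18 the corresponding values were 0.205 and 0.176 in the controls, 0.586 and 0.586.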
